A study of Mus musculus with 2 samples.

Results

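The genes described here are 35 members of the fibroblast growth factor (FGF) pathway: 15 genes of secreted FGF ligands, 4 of intracellular FGFs (Fgf11 to Fgf14), 5 of receptors, 2 of receptor adaptors and 9 of transcriptional targets and feedback regulators. They were chosen by name, not by level, out of 43346 mouse genes in the tables, and all 35 were found. Their RNA was measured by total RNA-seq in the forebrain of healthy mouse embryos of strain B6NCrl at 15.5 days, males and females mixed. There was 1 group of 2 biological replicates: replicate 1 was a pool of 78 forebrains and replicate 2 a pool of 62. No treatment, allele or other tissue was compared, so each value is a level, and differences are set against the spread between these 2 pools. With 2 libraries no test can give a two-sided exact p below 0.5, and none is given.

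FGFs signal by binding receptor tyrosine kinases together with heparan sulfate chains. The activated receptor phosphorylates the docking proteins FRS2 and FRS3, which start the RAS-MAPK relay. That relay switches on the ETS transcription factors Etv1, Etv4 and Etv5 and genes whose products damp the signal: Sprouty and Spred proteins restrain the RAS-to-RAF step, and the phosphatase DUSP6 inactivates ERK. In the embryonic forebrain the pathway is known for patterning the front of the telencephalon and for keeping radial glia, the neural stem cells, dividing. Fgf11 to Fgf14 belong to the family by sequence but are not secreted. Their products bind voltage-gated sodium channels inside neurons.

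The libraries were of similar depth, with 37775279 estimated reads on mouse genes in replicate 1 and 34356382 in replicate 2. The tissue label was checked against markers: the telencephalon genes Emx1, Emx2 and Lhx2 were at 1 TPM or more in both libraries, and none of the 4 midbrain and hindbrain genes was, with En2 at 0 reads in both. Markers of radial glia, neurons, meninges, endothelium, choroid plexus, oligodendrocyte precursors, microglia and blood were all present, so the RNA came from a mixture of cells. In such bulk RNA, fewer cells of a type and less RNA per cell cannot be told apart. The choroid plexus list stood apart between the pools: its 4 genes summed to 803 TPM in replicate 1 and 355 TPM in replicate 2, and each of the 4 was higher in replicate 1.

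Levels are given as TPM, the deposited measure of transcript abundance that corrects for transcript length. Counting a gene as detected at 1 TPM or more in both libraries, 24 of the 35 members were detected, which is 68.6%, while 60.6% of 21474 protein-coding genes were. The classes differed in this count. All 9 target and feedback genes, all 4 intracellular FGFs and both adaptors were detected, with 4 of 5 receptors and 5 of 15 secreted ligands. At 10 TPM or more in both libraries stood 12 members: 3 receptors, 4 target and feedback genes, both adaptors, 2 intracellular FGFs and 1 secreted ligand, Fgf15. That is 34.3% of the members, while 40.9% of protein-coding genes stood so high.

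**Figure D1:**
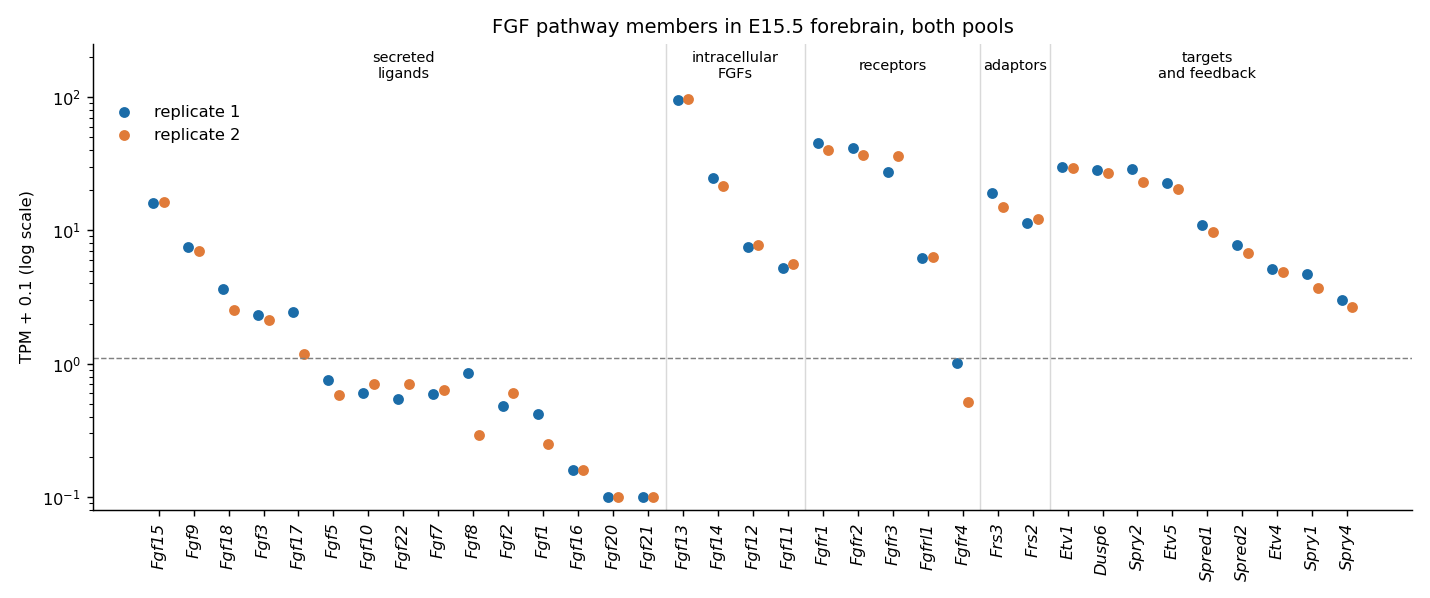
TPM plus 0.1 (log axis) of the 35 members in replicate 1 (blue) and replicate 2 (orange), by class and, within a class, from high to low mean; the dashed line marks 1 TPM. Secreted ligands reach from 0 reads to 16.3 TPM, while every target and feedback gene lies above 2 TPM in both pools.

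The median secreted ligand lay far below the median receptor. On the log2(TPM + 0.1) scale the difference of class medians, ligands minus receptors, was -5.69 ± 0.24 (SD of the 2 single-library differences), with -5.51 in replicate 1 and -5.85 in replicate 2. Intracellular FGFs minus secreted ligands gave 4.42 ± 0.09, with 4.50 in replicate 1 and 4.37 in replicate 2. Both gaps were many times the spread between the pools. Target and feedback genes minus receptors gave -1.63 ± 0.42, and this one shrank to -0.16 when class means replaced medians, since the receptor class holds 3 high and 2 low genes.

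Among the secreted ligands, Fgf15 was the highest. Fgf15, the mouse counterpart of human FGF19, is an endocrine FGF in the gut and is expressed by progenitors in the embryonic brain. It stood at 15.9 TPM in replicate 1 and 16.3 TPM in replicate 2 (637 and 598 reads), and made up 45.5% and 51.0% of all TPM of the 15 secreted ligands. The pools were nearly equal for it, and the tables hold 1 transcript of it (Fgf15-201). Its exons overlap 479 bases of an antisense gene, Gm26793, at 2.41 TPM in replicate 1 and 2.22 TPM in replicate 2, and no source used here says whether reads were counted by strand.

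Fgf9, a ligand best known from lung, gonad and cerebellar development, followed with 7.39 TPM in replicate 1 and 6.95 TPM in replicate 2. Fgf18, known from cortical neurons and from bone and cartilage growth, had 3.55 TPM in replicate 1 and 2.45 TPM in replicate 2 (82 and 52 reads). Fgf9 exceeded Fgf18 by 1.28 ± 0.32 on the log2 scale (SD, n = 2), 2.43-fold. Fgf18 varied more between the pools than Fgf9 did.

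Fgf17 and Fgf8, of the same subfamily as Fgf18, pattern the front of the telencephalon early in development. Fgf17 stood at 2.34 TPM in replicate 1 and 1.08 TPM in replicate 2, on 87 and 37 reads. Fgf8 stood at 0.75 TPM in replicate 1 and 0.19 TPM in replicate 2, on 10 and 4 reads. Both were higher in replicate 1, and Fgf8 was too thinly covered for a firm level. Fgf15 exceeded Fgf17 by 3.34 ± 0.81 on the log2 scale (SD, n = 2). Fgf17 exceeded Fgf8 by 2.07 ± 0.61, but in replicate 2 the deposited bounds of the pair overlapped. The isoforms assigned to Fgf8 did not recur: Fgf8-203 and Fgf8-205 held 80.3% and 19.7% of it in replicate 1, and Fgf8-206 held 100% in replicate 2.

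Fgf3, a ligand of the FGF7 subfamily needed for inner ear development, had 2.21 TPM in replicate 1 and 2.03 TPM in replicate 2. Fgf3 and Fgf15 are neighbours on the same strand of chromosome 7, at chr7:144838595-144844436 and chr7:144896531-144900953 (mm10, spans of their highest transcripts), 52095 bases apart. Fgf4 lies between them, at chr7:144847367-144865243, and had 0 reads in both libraries. Of this cluster, then, the outer genes were detected and the middle one was not.

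By deposited TPM the other 10 secreted ligands stayed below 1 TPM in both libraries. For Fgf2 the posterior mean, another deposited estimate, was 1.02 TPM in replicate 1 and 1.26 TPM in replicate 2. The deposited upper bounds of Fgf1, Fgf2, Fgf10 and Fgf22 passed 1 TPM in both libraries, and that of Fgf8 in replicate 1. A level of 1 TPM is thus not excluded for these genes. Fgf5, which limits hair growth, had 0.66 TPM in replicate 1 and 0.48 TPM in replicate 2. The mesenchymal ligands Fgf7 and Fgf10, which act on epithelia through IIIb receptor forms, were as low. Fgf7 had 0.49 TPM in replicate 1 and 0.53 TPM in replicate 2, and Fgf10 had 0.50 TPM in replicate 1 and 0.61 TPM in replicate 2. Fgf22, a ligand of the same subfamily linked to synapse formation, had 0.44 TPM in replicate 1 and 0.60 TPM in replicate 2, on 4 and 5 reads. All 4 lay between 0.44 and 0.66 TPM in both pools.

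Fgf2, a ligand long used to grow neural stem cells in culture, rested on 2 reads in replicate 1 and 4 in replicate 2 (0.38 and 0.50 TPM). Those reads were assigned to short transcripts, and 242 bases of its exons are shared with the antisense gene Nudt6, at 4.31 TPM in replicate 1 and 4.11 TPM in replicate 2. Fgf1, which binds every FGF receptor, had 0.32 TPM in replicate 1 and 0.15 TPM in replicate 2. The order of Fgf2 and Fgf1 was not resolved: by reads Fgf1 had more (16 and 12), and their deposited bounds overlapped in both libraries. Fgf16, a ligand of the heart, had 2 reads in each library (0.06 TPM).

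Fgf20 and Fgf21 had no read. For Fgf20, a ligand of the Fgf9 subfamily, 3 reads would have been 0.137 TPM in replicate 1 and 0.150 TPM in replicate 2. For Fgf21, a hormone of the liver, they would have been 0.154 TPM in replicate 1 and 0.168 TPM in replicate 2. Levels up to these values were not detectable at this depth, counting error only. The deposited upper bounds of Fgf20 were higher, at 0.47 TPM in replicate 1 and 0.64 TPM in replicate 2. Its exons share 202 bases with Micu3, a gene on the other strand at 28.1 TPM in replicate 1 and 25.4 TPM in replicate 2.

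Of all 19 FGF genes, Fgf13 had the highest level. Known for modulating sodium channels and for binding microtubules in migrating neurons, it stood at 95.2 TPM in replicate 1 and 95.9 TPM in replicate 2 (3660 and 3431 reads). This was 57.0% of the summed TPM of the 19 FGF genes in replicate 1 and 59.0% in replicate 2. It lay above 91.8% of protein-coding genes. Fgf14, whose product tunes sodium channels at the axon initial segment, came next with 24.4 TPM in replicate 1 and 21.5 TPM in replicate 2. The related Fgf12 had 7.38 TPM in replicate 1 and 7.73 TPM in replicate 2, and Fgf11 had 5.15 TPM in replicate 1 and 5.52 TPM in replicate 2.

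The order of the 4 was the same in both libraries, with no overlap of their deposited bounds. Fgf13 exceeded Fgf12 by 3.66 ± 0.04 on the log2 scale (12.6-fold), Fgf12 minus Fgf14 was -1.60 ± 0.17, and Fgf14 exceeded Fgf11 by 2.10 ± 0.20 (SD, n = 2). By reads, without length correction, the same differences were 2.82, -1.82 and 2.49, so the size of the Fgf13 lead rests on the length correction. The sodium channels these proteins bind were also present: all 4 listed genes were detected. Scn3a, the channel of embryonic neurons, was the highest at 42.9 TPM in replicate 1 and 37.2 TPM in replicate 2. Scn2a followed with 14.1 TPM in replicate 1 and 11.5 TPM in replicate 2, and Scn1a with 8.87 TPM in replicate 1 and 10.6 TPM in replicate 2. Scn8a was the lowest by mean, with 8.93 TPM in replicate 1 and 8.49 TPM in replicate 2.

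Transcripts of Fgf13 and Fgf14 begin at alternative first coding exons, which give the proteins different amino termini. These exons are shown because the 2 genes divided their RNA among them unequally. They were read from the GENCODE M21 transcripts (mm10 coordinates, minus strand), 5′ to 3′, numbered from the most upstream start, with the first codon in capitals. Start 1 of Fgf13 lies at chrX:59567140-59567188, start 2 at chrX:59166013-59166040 and start 3 at chrX:59133877-59134063. Start 1 of Fgf14 lies at chr14:124676510-124676717 and start 2 at chr14:124192329-124192521.
Fgf13 start 1: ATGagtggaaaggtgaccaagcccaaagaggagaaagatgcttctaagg
Fgf13 start 2: ATGgctttgttaaggaagtcatattcag
Fgf13 start 3: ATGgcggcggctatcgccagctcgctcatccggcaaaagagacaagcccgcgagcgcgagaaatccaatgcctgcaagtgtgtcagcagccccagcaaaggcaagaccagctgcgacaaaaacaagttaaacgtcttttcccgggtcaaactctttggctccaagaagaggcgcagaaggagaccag
Fgf14 start 1: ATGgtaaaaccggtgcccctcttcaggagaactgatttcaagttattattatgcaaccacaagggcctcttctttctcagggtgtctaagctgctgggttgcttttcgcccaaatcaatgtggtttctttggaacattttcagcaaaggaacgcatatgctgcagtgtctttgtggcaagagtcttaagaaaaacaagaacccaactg
Fgf14 start 2: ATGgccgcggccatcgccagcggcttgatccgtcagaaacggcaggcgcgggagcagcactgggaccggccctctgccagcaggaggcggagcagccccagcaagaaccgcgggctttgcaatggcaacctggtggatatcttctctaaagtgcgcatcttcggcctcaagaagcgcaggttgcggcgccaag

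The 4 transcripts counted with start 1 of Fgf13 carried 56.6 TPM in replicate 1 and 46.7 TPM in replicate 2. That was 54.1% ± 7.7 of the gene (SD, n = 2). They include Fgf13-203, whose annotated reading frame begins elsewhere. Start 2 carried 21.2 TPM in replicate 1 and 24.8 TPM in replicate 2, or 24.1% ± 2.5. Start 3 carried 16.2 TPM in replicate 1 and 21.8 TPM in replicate 2, or 19.9% ± 4.0. The sum for the most upstream start was the largest in both pools only with Fgf13-203 counted in it at the stated levels. Its lead as a first coding exon is therefore not established. Starts 2 and 3 differed by about as much as each varied between pools. Of the transcripts counted with start 1, Fgf13-203 held 30.6% of the gene in replicate 1 and 21.9% in replicate 2. Fgf13-205 held 17.7% in each, and Fgf13-206 held 8.51% in replicate 1 and 5.83% in replicate 2. Fgf13-205, Fgf13-206 and Fgf13-208 are short annotated fragments, and together carried 27.5 TPM in replicate 1 and 25.7 TPM in replicate 2. These levels rest on 286 reads in replicate 1 and 252 in replicate 2, and without Fgf13-203 they are all that start 1 holds. Without them start 1 did not lead in replicate 2, where Fgf13-203 had 20.96 TPM, below starts 2 and 3; in replicate 1 it had 29.2 TPM, above both. In Fgf13-203 the annotated reading frame does not begin at the first codon shown for start 1, and where it begins is not shown here.

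Fgf14 was less evenly divided. Its start 1 (Fgf14-202) held 87.8% of the gene in replicate 1 and 88.6% in replicate 2, and its start 2 (Fgf14-201) held 12.2% in replicate 1 and 11.3% in replicate 2. For Fgf11, both transcripts share the first coding exon, with Fgf11-201 at 57.7% in replicate 1 and 58.8% in replicate 2 and Fgf11-202 at 42.3% in replicate 1 and 41.2% in replicate 2. Fgf12 had 1 transcript in the annotation used for the tables, so its starts cannot be separated here.

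**Figure D2:**
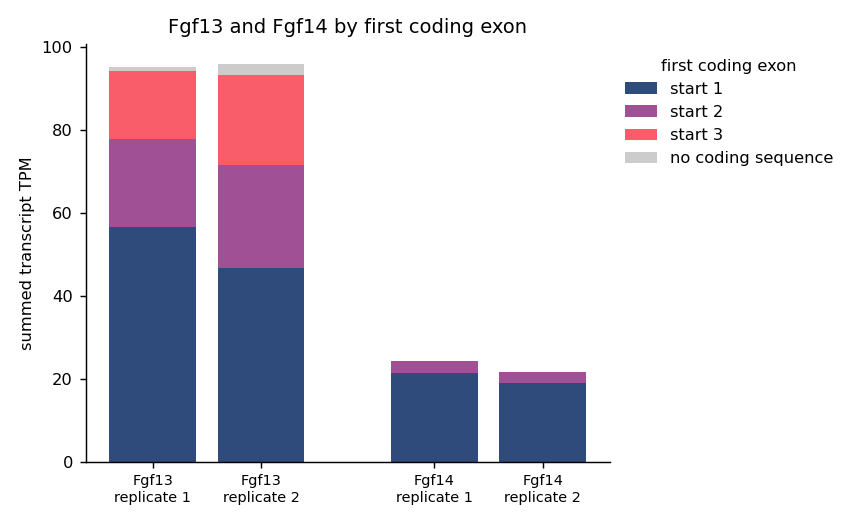
Summed transcript TPM of Fgf13 and Fgf14 in each pool, split by first coding exon (start 1 is the most upstream) and transcripts without coding sequence. The 4 Fgf13 transcripts counted with start 1 sum to 56.6 TPM in replicate 1 and 46.7 TPM in replicate 2. They include Fgf13-203, whose annotated reading frame begins elsewhere. In Fgf14, start 1 holds most of the gene.

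Fgfr1, Fgfr2 and Fgfr3 made up nearly all receptor RNA. They are receptor tyrosine kinases with 3 immunoglobulin loops outside the cell, and radial glia of the embryonic forebrain are known to express them. Fgfr1 (spanning chr8:25518795-25574781) stood at 45.5 TPM in replicate 1 and 40.1 TPM in replicate 2. Fgfr2 (chr7:130162512-130266245) stood at 41.6 TPM in replicate 1 and 36.8 TPM in replicate 2. Fgfr3 (chr5:33721724-33737067), known from cortical progenitors and from astrocytes, stood at 27.3 TPM in replicate 1 and 36.3 TPM in replicate 2. Fgfr1 and Fgfr2 were higher in replicate 1, and Fgfr3 was higher in replicate 2.

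Over all their transcripts, Fgfr1 and Fgfr2 were close to each other. Their log2 ratio of TPM was 0.13 in replicate 1 and 0.12 in replicate 2, and the deposited bounds of the 2 genes overlapped in both libraries. Per read, without length correction, Fgfr1 was ahead by 0.62, so the size of the gap rests on the lengths of the transcripts the reads were assigned to. It rests too on Fgfr2-217, an Fgfr2 transcript whose exons overlap those of another gene: without it, an alternative chosen after seeing the data, Fgfr2 stood at 31.9 TPM in replicate 1 and 27.8 TPM in replicate 2, and Fgfr1 was ahead by 0.52 ± 0.01 (SD, n = 2). Fgfr1 minus Fgfr3 was 0.44 ± 0.42 and Fgfr2 minus Fgfr3 was 0.31 ± 0.41 on the log2 scale (SD, n = 2), differences about as large as the spread between pools or smaller. Fgfr1 was above Fgfr3 in both libraries, by TPM and by reads, with deposited bounds that did not overlap. Fgfr2 minus Fgfr3 turned to -0.17 by reads, so the order of those genes was not resolved.

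Fgfr4, the receptor of liver and embryonic muscle, stood at 0.91 TPM in replicate 1 and 0.42 TPM in replicate 2 (46 and 29 reads). By deposited TPM it was the only receptor below 1 TPM. Its posterior mean was 1.16 TPM in replicate 1 and 0.67 TPM in replicate 2. Its deposited upper bounds were 1.73 TPM in replicate 1 and 1.06 TPM in replicate 2, so a level of 1 TPM is not excluded. Fgfr3 exceeded Fgfr4 by 5.67 ± 1.08 on the log2 scale. Fgfrl1, a receptor-like protein without a tyrosine kinase domain, stood at 6.09 TPM in replicate 1 and 6.16 TPM in replicate 2, above Fgfr4 by 3.31 ± 0.80. By deposited TPM, receptors thus fell into 3 levels, with Fgfrl1 alone in the middle.

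FGFR1 to FGFR3 each occur in IIIb and IIIc forms, which differ in the exon coding for the later part of the third immunoglobulin loop. This exon sets which ligands bind: IIIb forms are typical of epithelia and IIIc forms of mesenchyme and neural tissue. The 2 exons of Fgfr3 are shown as an example because transcripts were sorted by such exons. They were read from GENCODE M21 transcripts (mm10, plus strand), 5′ to 3′, with IIIb at chr5:33731281-33731431 and IIIc at chr5:33732117-33732261. Capitals mark bases that are the same in both after alignment.
Fgfr3 IIIb: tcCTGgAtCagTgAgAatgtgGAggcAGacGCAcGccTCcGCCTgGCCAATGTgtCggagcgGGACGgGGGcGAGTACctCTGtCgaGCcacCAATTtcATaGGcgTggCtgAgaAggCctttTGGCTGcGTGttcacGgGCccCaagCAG
Fgfr3 IIIc: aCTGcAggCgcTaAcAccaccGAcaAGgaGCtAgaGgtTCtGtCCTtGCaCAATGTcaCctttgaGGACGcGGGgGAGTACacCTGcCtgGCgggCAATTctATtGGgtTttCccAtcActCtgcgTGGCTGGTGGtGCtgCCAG

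The IIIb exon of Fgfr3 is 151 bases long and its IIIc exon 145, and they match at 81 of 156 alignment columns (51.9%). The exons that sort the transcripts of this gene are therefore distinct in sequence.

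IIIc transcripts led over IIIb transcripts in all 3 genes. Fgfr1 IIIc summed to 34.98 TPM in replicate 1 and 31.6 TPM in replicate 2, and Fgfr1 IIIb to 0.22 TPM in replicate 1 and 0 in replicate 2. One further transcript with both exons, annotated for nonsense-mediated decay, held 1.58 TPM in replicate 1 and 1.91 TPM in replicate 2. In Fgfr1, then, almost nothing was assigned to IIIb alone.

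Fgfr2 IIIc summed to 18.8 TPM in replicate 1 and 15.8 TPM in replicate 2, and Fgfr2 IIIb to 4.53 TPM in replicate 1 and 3.42 TPM in replicate 2. IIIc was 81.4% ± 1.1 of the 2 forms (SD, n = 2). Fgfr3 IIIc summed to 22.9 TPM in replicate 1 and 28.4 TPM in replicate 2, and Fgfr3 IIIb to 2.16 TPM in replicate 1 and 3.84 TPM in replicate 2. IIIc was 89.7% ± 2.3 of the 2 forms. The IIIb part is the less certain one. The deposited lower bound of Fgfr2-208 was 1.2e-05 TPM in replicate 1 and 0.019 TPM in replicate 2. For Fgfr3-211 it was 0.019 TPM in replicate 1 and 1.17 TPM in replicate 2. For Fgfr2-211, also with the IIIb exon, it was 1.27 TPM in replicate 1 and 0.93 TPM in replicate 2. Fgfr2-208 held 5.32% of its gene in replicate 1 and 3.93% in replicate 2, and Fgfr3-211 held 7.91% in replicate 1 and 10.6% in replicate 2. Fgfr2-211 had 2.32 TPM in replicate 1 and 1.97 TPM in replicate 2, and its length in the tables (3053 bases) differs from that in the annotation used to sort it.

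**Figure D3:**
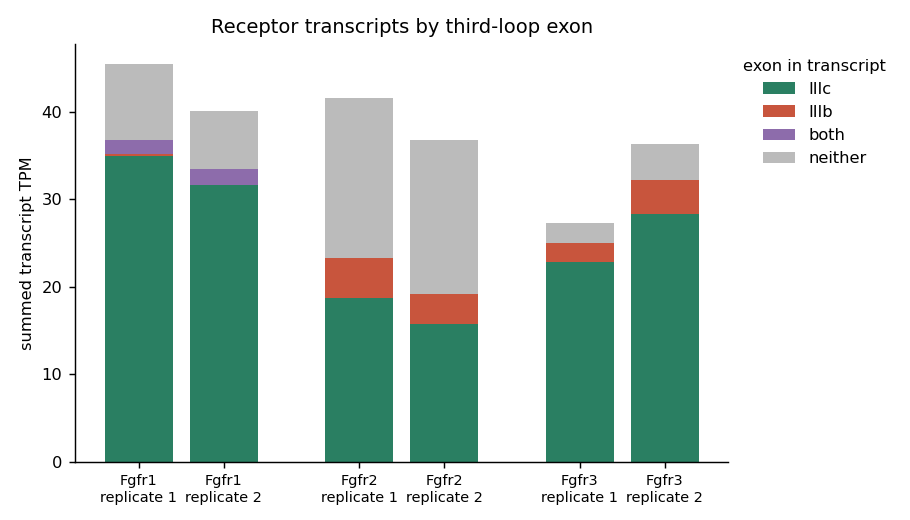
Summed transcript TPM of Fgfr1, Fgfr2 and Fgfr3 in each pool, split by whether a transcript carries the IIIc exon, the IIIb exon, both or neither. IIIc is the largest of the forms that carry 1 of the 2 exons in each gene and pool, and transcripts with neither exon hold 43.9% of Fgfr2 in replicate 1 and 47.8% in replicate 2.

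Fgfr2 stood apart by its transcripts with neither exon. They summed to 18.3 TPM in replicate 1 and 17.6 TPM in replicate 2, while those of Fgfr1 summed to 8.72 TPM in replicate 1 and 6.65 TPM in replicate 2 and those of Fgfr3 to 2.29 TPM in replicate 1 and 4.15 TPM in replicate 2. The main one, Fgfr2-217, held 23.3% of the gene in replicate 1 and 24.4% in replicate 2. Its annotated model spans 2961 kb, starts far upstream of the gene and contains only the last 5 coding exons, which code for part of the kinase domain. Its upstream exons share 314 bases with Ctbp2, a gene on the same strand that stood at 72.4 TPM in replicate 1 and 66.2 TPM in replicate 2, and the part of that overlap in its level was not tested. No other Fgfr2 transcript in the tables overlaps exons of Ctbp2. Fgfr2-221, a 790-base transcript with a retained intron at the same end of the gene, held 11.5% in replicate 1 and 13.4% in replicate 2. No source used here says how reads in these last exons, which full-length transcripts share, were divided.

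The receptor transcripts also differed in the first immunoglobulin loop, which some forms lack and which is known to hold back ligand binding. Among IIIb and IIIc transcripts, those with the exon of that loop held 80.4% in replicate 1 and 83.6% in replicate 2 for Fgfr1. For Fgfr3 they held 96.0% in replicate 1 and 94.7% in replicate 2, and the rest was Fgfr3-204, a 737-base retained-intron fragment. For Fgfr2 they held only 28.8% in replicate 1 and 36.3% in replicate 2, carried by Fgfr2-215 (16.2% of the gene in replicate 1 and 18.9% in replicate 2), while Fgfr2-207, which lacks that exon, alone held 29.0% of the gene in replicate 1 and 23.9% in replicate 2. The single highest transcripts of the others were Fgfr1-202, with 45.2% of its gene in replicate 1 and 44.0% in replicate 2, and Fgfr3-201, with 36.3% in replicate 1 and 40.5% in replicate 2.

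Other transcripts also held 5% or more of their receptor gene. Fgfr1-201 held 15.1% in replicate 1 and 19.3% in replicate 2, Fgfr1-203 held 14.7% in replicate 1 and 12.9% in replicate 2, and Fgfr1-206, with a retained intron, held 11.1% in replicate 1 and 12.4% in replicate 2. Fgfr3-209 held 30.9% in replicate 1 and 18.4% in replicate 2, and Fgfr3-210 held 10.9% in replicate 1 and 10.3% in replicate 2. Fgfr3-205, with a retained intron, held 5.54% in replicate 1 and 6.30% in replicate 2. Retained-intron transcripts were thus part of each gene: in replicate 1 they made up 17.6% of Fgfr1, 20.0% of Fgfr2 and 12.0% of Fgfr3, and in replicate 2 they made up 16.6%, 23.4% and 15.2% of the same genes. Of the low receptors, Fgfr4 was carried by Fgfr4-201, with 60.8% in replicate 1 and 100% in replicate 2, and Fgfrl1 by Fgfrl1-201, with 79.0% in replicate 1 and 89.3% in replicate 2. The rest of each was a second transcript: Fgfr4-202, with a retained intron, at 39.2% in replicate 1 and 0% in replicate 2, and Fgfrl1-202 at 20.9% in replicate 1 and 10.7% in replicate 2.

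The adaptors Frs2 and Frs3, which dock at the receptor and recruit GRB2 and SHP2, were both well detected. Frs2 stood at 11.3 TPM in replicate 1 and 12.0 TPM in replicate 2. Frs3 stood at 19.1 TPM in replicate 1 and 14.9 TPM in replicate 2. Per length Frs2 minus Frs3 was -0.53 ± 0.32 on the log2 scale (SD, n = 2), while by reads Frs2 had more (1479 in replicate 1 and 1445 in replicate 2, while Frs3 had 844 and 640). The order of the 2 adaptors thus turned with the length correction.

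Among the targets, Etv1 and Etv5 were high and Etv4 lower. Etv1, an ETS factor also known as a marker of layer 5 cortical neurons, stood at 29.8 TPM in replicate 1 and 29.0 TPM in replicate 2. Etv5 stood at 22.6 TPM in replicate 1 and 20.4 TPM in replicate 2. Etv4 stood at 5.07 TPM in replicate 1 and 4.77 TPM in replicate 2. Etv5 exceeded Etv4 by 2.13 ± 0.04 on the log2 scale, 4.36-fold (SD, n = 2), and by 3.26 by reads. Etv1 exceeded Etv5 by 0.45 ± 0.08 per length, while by reads their log2 ratio was -0.07 in replicate 1 and 0.07 in replicate 2.

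Etv5 was carried almost entirely by Etv5-201, with 99.6% of the gene in replicate 1 and 100% in replicate 2. Etv1 was spread over several transcripts, led by Etv1-203 with 31.3% in replicate 1 and 39.9% in replicate 2. Etv1-201 held 18.0% in each pool, Etv1-202 held 11.9% in replicate 1 and 16.8% in replicate 2, Etv1-210 held 10.97% in replicate 1 and 11.59% in replicate 2, and Etv1-204 held 8.17% in replicate 1 and none in replicate 2. The retained-intron transcript Etv1-212 held 18.2% in replicate 1 and 12.9% in replicate 2. Etv4 was led by Etv4-201, with 43.4% in replicate 1 and 59.9% in replicate 2, followed by Etv4-202, with 22.4% in replicate 1 and 13.7% in replicate 2. Short processed transcripts of Etv4 took most of the rest, with Etv4-207 at 16.7% in replicate 1 and 9.43% in replicate 2, Etv4-211 at 9.60% in replicate 1 and 10.4% in replicate 2, Etv4-204 at 7.87% in replicate 1 and 1.38% in replicate 2, and Etv4-205 at 0% in replicate 1 and 5.21% in replicate 2.

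Dusp6, the ERK phosphatase, stood at 28.4 TPM in replicate 1 and 26.7 TPM in replicate 2. Spry2 was the highest Sprouty gene, at 28.6 TPM in replicate 1 and 22.8 TPM in replicate 2. Spry1 stood at 4.64 TPM in replicate 1 and 3.59 TPM in replicate 2, and Spry4 at 2.91 TPM in replicate 1 and 2.56 TPM in replicate 2. Spry2 thus exceeded Spry1 by 2.64 ± 0.03 on the log2 scale, 6.25-fold, a difference far larger than the spread between pools. Spry1 minus Spry4 was 0.58 ± 0.13 per length and changed sign by reads, at -0.34. Dusp6 minus Spry2 was 0.11 ± 0.17, within the spread. Spry2 and Spry4 each have 1 transcript in the tables. Of Spry1, the transcript Spry1-201 held 78.0% in replicate 1 and 70.1% in replicate 2, and Spry1-203 held 22.0% in replicate 1 and 29.9% in replicate 2.

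Spred1, whose human counterpart is mutated in Legius syndrome, stood at 10.8 TPM in replicate 1 and 9.56 TPM in replicate 2. Spred2 stood at 7.66 TPM in replicate 1 and 6.70 TPM in replicate 2. Spred1 exceeded Spred2 by 0.51 ± 0.01 on the log2 scale (SD, n = 2), 1.42-fold. The 2 genes kept this ratio closely in both pools.

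Most of the further genes listed for the pathway were present on both sides of the receptor. Their counts are to be read beside the 60.6% of all protein-coding genes detected and the 40.9% at 10 TPM or more. Of the 18 genes of the RAS-MAPK relay, all 18 were detected and 16 stood at 10 TPM or more in both libraries, with a median of 73.8 TPM in replicate 1 and 74.6 TPM in replicate 2. The median protein-coding gene stood at 4.79 TPM in replicate 1 and 4.69 TPM in replicate 2. The kinase Araf was the highest, at 194 TPM in replicate 1 and 185 TPM in replicate 2, and Map2k2 followed with a mean level of 181 TPM. The exchange factor Sos1 was the lowest, at 5.54 TPM in replicate 1 and 5.67 TPM in replicate 2.

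Heparan sulfate genes, which make or carry the sugar chains that FGFs need at the receptor, were detected in 19 of 20 cases. The proteoglycan Gpc2 was the highest, at 144 TPM in replicate 1 and 154 TPM in replicate 2, followed by Sdc3 and Gpc1 with mean levels of 70.6 and 70.3 TPM. Hs6st3, a sulfotransferase, was the lowest, at 1.17 TPM in replicate 1 and 0.81 TPM in replicate 2. The median of this list was 18.98 TPM in replicate 1 and 16.5 TPM in replicate 2, above the medians of the secreted ligands and of all protein-coding genes.

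Of the 8 co-receptor and modulator genes matched, 5 were detected, near the 60.6% share of all protein-coding genes. The membrane proteins Flrt3 and Flrt2 led with mean levels of 45.2 and 30.4 TPM, followed by the FGF-binding protein gene Fgfbp3 with 25.1 TPM. Klb, the co-receptor through which Fgf15 and Fgf21 act as hormones, was the lowest, at 0.06 TPM in replicate 1 and 0.03 TPM in replicate 2 (5 and 2 reads). The highest secreted ligand thus stood beside almost no RNA of its hormonal co-receptor.

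Among 5 further feedback genes, 4 were detected. Dusp4, a nuclear MAPK phosphatase, had 60.2 TPM in replicate 1 and 61.8 TPM in replicate 2, a higher level than any of the 9 target and feedback members. Dusp7 and Spred3 followed with mean levels of 8.19 and 4.58 TPM, and Dusp9 was the lowest, with 0.28 TPM in replicate 1 and 0.35 TPM in replicate 2. The 3 remaining FGF ligand genes were not detected. Fgf23, the phosphate hormone, had 3 reads in each library, and Fgf4 and Fgf6 had none.

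**Figure D4:**
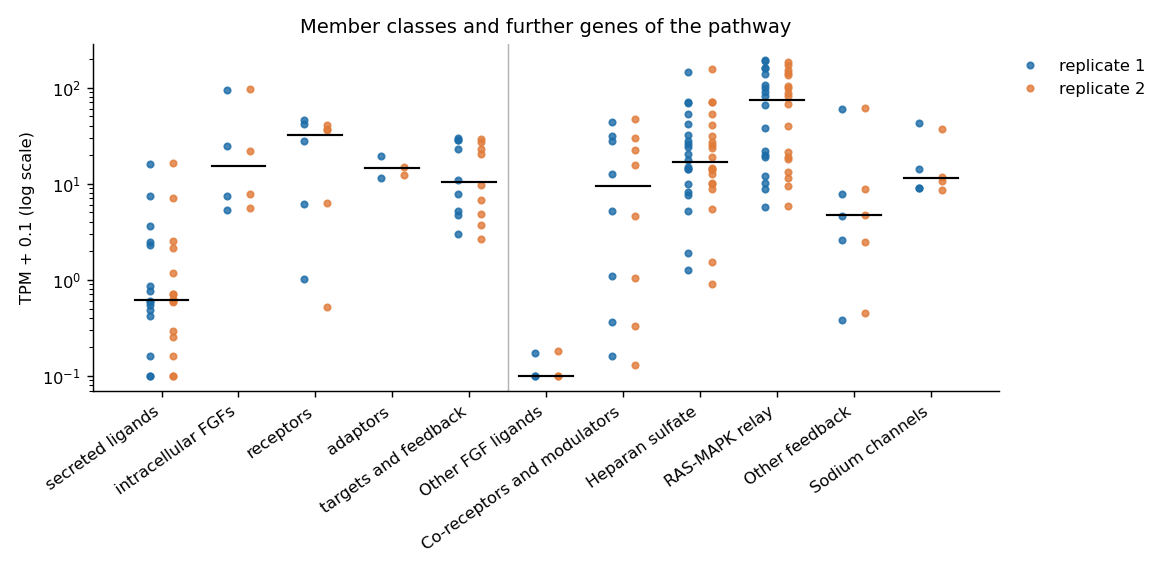
TPM plus 0.1 (log axis) of the 5 member classes (left of the grey line) and of the further gene lists (right), with replicate 1 in blue, replicate 2 in orange and a bar at the median of the mean TPM. The RAS-MAPK relay has the highest median, and the secreted ligands have a median below 1 TPM in both pools.

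Few members differed by 1.5-fold or more between the pools. Of 30 members with at least 10 reads summed over both, 2 were past 1.5-fold between the pools after scaling, while 11.3% of 19165 genes with as many reads were. The members' count was not above that share. These were Fgf17 and Fgf8, both 2.12-fold higher in replicate 1. For Fgf17 the log2 ratio of replicate 1 over replicate 2 was 1.08, with a 95% counting interval of 0.52 to 1.69 (exact binomial). For Fgf8 the ratio was also 1.08, but its interval of -0.61 to 3.31 included 0. Among genes with 100 reads or more, 1 of 25 members was past 1.5-fold (Fgf17), beside 2.23% of 14313 genes. The choroid plexus genes moved the same way, with log2 ratios of 1.18 for Ttr, 0.85 for Folr1, 0.95 for Kcnj13 and 1.14 for Clic6, and their part in the Fgf17 difference was not tested.

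Counting error alone did not cover every smaller difference. For 12 of the 30 members the interval lay off 0, above it for 10 and below it for 2. The same held for 25.7% of the 19165 genes, above 0 for 12.7% and below 0 for 13%. Deeper coverage narrows an interval: among genes with 100 reads or more it lay off 0 for 12 of 25 members and for 30.4% of all genes. Fgfr3 was lower in replicate 1, with a log2 ratio of -0.37 (-0.45 to -0.29), and Frs2 lay at -0.11. On the other side, Spry1 lay at 0.35, Spry2 at 0.31 (0.19 to 0.43), Frs3 at 0.26 and Fgfr2 at 0.22 (0.14 to 0.31). Spry1, Spry2, Spred1, Spred2 and Etv5 were all among those above 0, and Etv1, Etv4, Dusp6 and Spry4 had intervals that included 0. The median over the 30 members was 0.12, while the median over all genes was near 0. Scaling to the spike-in reads lowers every ratio by the same 0.20. That leaves these members as far from the median gene but puts their own median at -0.08. With that scaling the ratios of Spry1 and Spry2 stayed above 0, at 0.15 and 0.11, but their intervals did not. Their lower bounds before it, 0.08 and 0.19, are smaller than the shift of 0.20. Spred1, Spred2 and Etv5 came to -0.07, -0.01 and -0.07, so their side of 0 depends on the scaling.

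**Figure D5:**
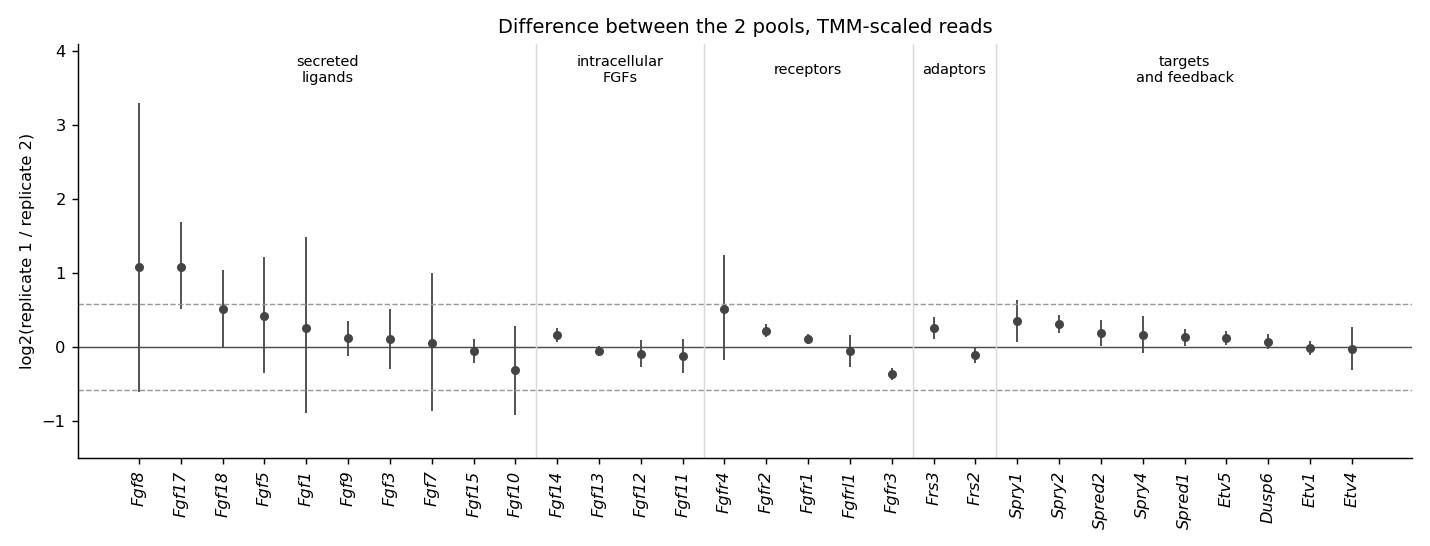
Log2 ratio of replicate 1 over replicate 2 for the 30 members with 10 reads or more, after TMM scaling; points are ratios, bars are 95% exact binomial counting intervals and dashed lines mark 1.5-fold. Fgf8 and Fgf17 lie past the line at 1.08, and Fgfr3 is the lowest at -0.37.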

How the data were processed

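Total RNA over 200 nucleotides, 10 ng per library with spike-ins, was sequenced from 2 pools, per the labels' protocols. Per the file headers and deposited notes, tables use mm10 and GENCODE M4; no source used here gives aligner, quantifier or strand. Expected counts deposited by the authors estimate reads per gene and were rounded here for ratios; deposited TPM values are scaled per length; deposited percent values give a transcript's share of its gene; the deposited bounds surround the posterior mean, at an unstated level. Of 69691 entries, 42462 of 43346 mouse genes matched a symbol. Exons came from GENCODE M21 on the same build; 139 of the members' 161 transcripts had the same length there. Pool ratios used edgeR 4.0.16 TMM factors plus 0.5 reads, with DESeq2 1.42.0 size factors as an alternative, and were tested on simulated data. Intervals cover counting error only. All 35 members are named, with the fixed pairs, the transcripts of chosen genes at 5% or more, and the 3 highest and the lowest gene of each pathway list. Members and lists were chosen with earlier results of these data known. Nothing ties the pools to separate litters beyond the label of biological replicates, so SDs measure the spread between them. Some exon sequences and gene levels are not reported here.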

Additional observations from a re-analysis of the deposited data

How the results depend on the processing

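Of the 6 results recomputed here, no difference or ratio changed direction under its alternatives. A count of members has no direction to change. Over all 41 alternatives, 25 stayed within the spread or within 1.5 times the count. With 1 replicate left out, a difference or ratio is a single-library value. The spread was taken from those same values, so staying within it was all but fixed. The count of detected members ran from 23 to 25 over all 5 of its alternatives. Secreted ligands minus receptors was -5.15 with posterior mean TPM, -6.54 with CPM, -4.43 with a pseudocount of 1 and -3.90 with class means, and -5.85 to -5.51 with 1 replicate left out. Intracellular FGFs minus secreted ligands was 3.84 with posterior mean TPM, 5.25 with CPM, 4.64 and 3.24 with pseudocounts of 0.01 and 1, and 4.33 with members at 0.1 TPM or more, and 4.37 to 4.50 with 1 replicate left out. Feedback regulators minus receptors was -1.02 with CPM and -0.16 with class means, and -1.92 to -1.32 with 1 replicate left out. Fgfr1 over Fgfr2 was 0.11 with posterior mean TPM, 0.62 with CPM, 0.13 with protein-coding transcripts only and 0.52 without the transcript Fgfr2-217, the last 2 being alternatives chosen after seeing the data. Of the pairs in the report, Fgfr2/Fgfr3, Fgf2/Fgf1, Spry1/Spry4 and Frs2/Frs3 turned from TPM to reads, and Etv1/Etv5 came to about 0. Members past 1.5-fold between pools numbered 4 by TPM, which adds Fgf1 and Fgfr4. No share of all genes is given for TPM to set beside that count. At the lower fold limit tried, 7 of 30 members were past it, beside 21.7% of 19165 genes. Apart from class means, where the 2 low receptors enter the average, the cause of these shifts was not tested. No paired analysis was possible because there is 1 group. Depth limits the 10 ligands below 1 TPM, which had 53 reads or fewer in each library.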
